A study of Mus musculus with 18 samples.

Results

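The cytosolic ribosomal protein genes were followed in mouse embryonic fibroblasts (MEF), an immortalized line, over 6 groups of arrays. Members were all genes whose symbol is Rpl or Rps plus a number, with at most 1 closing letter a, x or l, together with Rpsa, Rplp0, Rplp1 and Rplp2. Only probe sets annotated to exactly 1 symbol were read, and the brightest of them stood for each gene. This gave 59 members among 19936 symbols, 22 of the small subunit and 37 of the large subunit. The rule names genes by symbol, while the probe set that stands for a gene was picked by its mean signal.

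The 6 groups combined 3 kinds of cell with 2 temperatures, and each held 3 arrays. HSF1-KD cells had been infected with adenovirus carrying short hairpin RNA against HSF1, the transcription factor that drives the heat-shock response. SSBP1-KD cells carried short hairpin RNA against SSBP1, a mitochondrial protein that binds single-stranded DNA, and SCR cells carried a scrambled RNA. All 18 samples had thus been infected, with 2 h of contact with the virus and 70 h in normal medium, and they came from immortalized cells of ICR mice. HS cells spent 1 h at 42 °C, and Cont cells stayed at 37 °C. Total RNA, 200 ng per sample, was labelled for Affymetrix Mouse Gene ST arrays, and the deposited values are log2 signals per probe set. The labels do not say whether the 3 arrays of a group are separate cultures. P-values therefore reflect the spread from array to array, part or all of which may be technical.

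A cytosolic ribosome is built from a small and a large subunit, each made of ribosomal RNA and a fixed set of ribosomal proteins. In mammals most of these proteins are needed in equal number, and their transcripts are among the most abundant in a growing cell. The transcripts share a pyrimidine run at their 5′ end, the terminal oligopyrimidine motif, through which mTOR signalling and LARP1 control their translation and stability. Heat shock is known to slow the making of ribosomes and general translation while chaperone transcripts rise.

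On these arrays the members stood among the brightest genes. Their median log2 signal over all arrays was 11.93, against 8.21 for all symbols, and 43 of the 59 (72.9%) lay in the brightest 10% of symbols. Rps6, the small-subunit protein that S6 kinases phosphorylate, was the brightest at 13.98, the sixth brightest of all symbols. Only 5 members lay below the median of all symbols: Rps4l at 7.87, Rplp2 at 7.84, Rpl10l at 7.26, Rpl3l at 6.73 and Rpl39l at 5.47. Rps4l is annotated as a transcribed pseudogene and is counted with the small subunit by its symbol alone. Rpl10l and Rpl39l are known as testis paralogs of Rpl10 and Rpl39, and Rpl3l as a paralog of Rpl3 in striated muscle. Rplp2 encodes an acidic protein of the ribosomal stalk, and its dim signal comes from its only probe set with 1 symbol. Probe sets differ in how strongly they respond, so these levels rank signals and not amounts of RNA.

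The arrays were even in overall signal, with medians between 7.88 and 7.94 and correlations of at least 0.985 within groups. One array lay off from its group: SSBP1-KD Cont replicate 1 had a mean absolute residual of 0.152 over all probe sets, against 0.0918 and 0.11 for the other arrays of SSBP1-KD Cont. Ssbp1 averaged 8.65 in SSBP1-KD HS against 9.06 in SCR HS, a log2 difference of -0.41 (adjusted p = 0.00155 by limma). It averaged 9.20 in SSBP1-KD Cont against 9.42 in SCR Cont, a difference of -0.22 that missed the threshold (adjusted p = 0.0555). Hsf1 was not analysed here, since no probe set carries that symbol alone. The chaperone gene Hspa1a averaged 12.85 in SCR HS against 8.53 in SCR Cont. It averaged 9.14 in HSF1-KD HS against 8.58 in HSF1-KD Cont, and 12.13 in SSBP1-KD HS against 8.71 in SSBP1-KD Cont. Dnajb1, another chaperone gene, averaged 12.81 against 9.85 in SCR, 9.67 against 9.56 in HSF1-KD and 11.48 against 9.74 in SSBP1-KD. Of 8 fibroblast markers 7 lay above the median of all symbols, against 1 of 5 epithelial, 0 of 4 endothelial and 2 of 4 blood cell markers. Some markers moved with the knockdowns, as given beside the comparison with SCR. In cultures measured in bulk, fewer cells of a type and less RNA per cell cannot be told apart.

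HSF1-KD arrays carried the lowest ribosomal protein signals. The median over the 59 members was 11.856, 11.827 and 11.752 on the HSF1-KD HS arrays and 11.789, 11.748 and 11.761 on the HSF1-KD Cont arrays. On the SSBP1-KD arrays it was 12.077, 12.002 and 12.012 after heat shock and 11.977, 11.978 and 11.988 without it. On the SCR arrays it was 12.005, 12.091 and 11.944 after heat shock and 11.984, 11.895 and 11.941 without it. All 6 HSF1-KD arrays thus lay below all 12 other arrays.

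**Figure D1:**
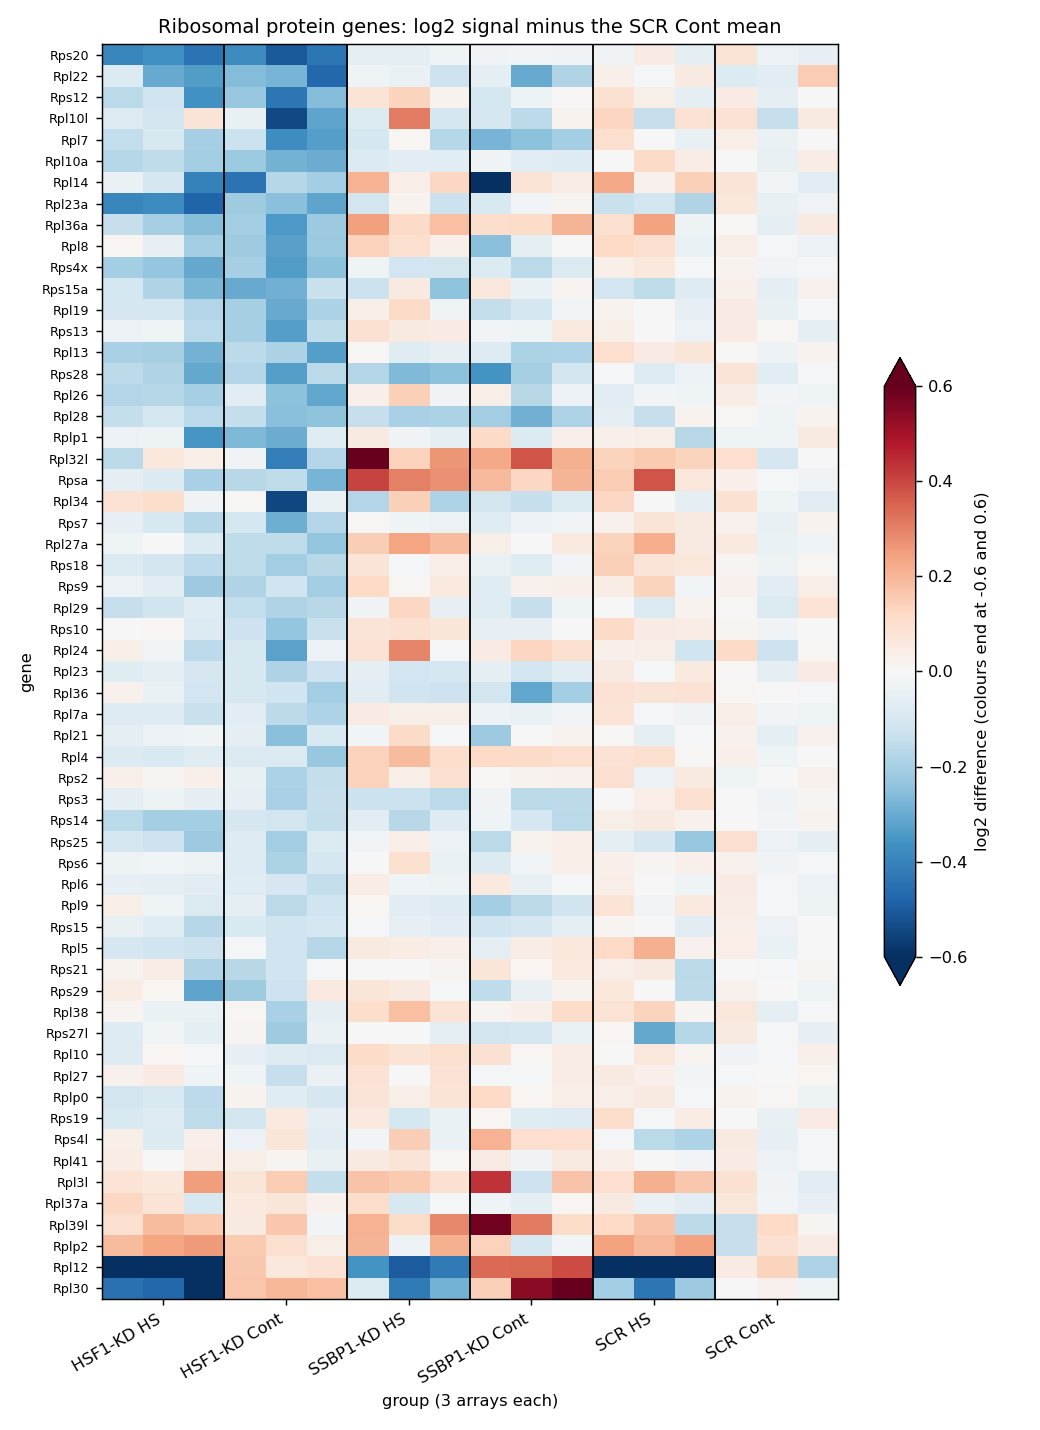
Log2 signal of the 59 genes (rows, ordered by their difference between HSF1-KD Cont and SCR Cont) on 18 arrays (columns, 3 per group), each gene minus its mean in SCR Cont. Most rows are blue on the 6 HSF1-KD arrays, Rps20 most strongly, while Rpl12 and Rpl30 at the foot are blue on the heat-shocked arrays of all 3 kinds of cell.

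The comparison of HSF1-KD with SCR asks how ribosomal protein transcripts stand in cells given short hairpin RNA against HSF1. Without heat shock, 22 of the 59 members (37.3%) were lower in HSF1-KD at an adjusted p under 0.05, the threshold used throughout, and 0 were higher. Among all symbols 10.1% were lower and 10.9% higher in this comparison. After heat shock, 16 members (27.1%) were lower and 0 higher, against 10.7% and 13.1% of all symbols. These shares were higher among bright genes: of the brightest 10% of symbols, members left out, 21.2% were lower in Cont and 19.2% in HS. The part of brightness in the members' counts was not tested.

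Markers of cell types moved in the same comparison. Of 8 fibroblast markers 5 were lower and 1 higher in HSF1-KD in Cont, and likewise in HS, and their mean log2 signal per array was 11.22 to 11.24 in HSF1-KD HS against 11.43 to 11.45 in SCR HS, and 11.30 to 11.36 in HSF1-KD Cont against 11.47 to 11.53 in SCR Cont. Col1a2, a collagen chain, differed by -0.76 in Cont (adjusted p = 4.24e-07) and by -0.91 in HS (adjusted p = 3.24e-08). In SSBP1-KD 5 of these markers were lower and 1 higher than in SCR in Cont, and 5 lower and 2 higher in HS. Col1a2 differed by -1.08 in both conditions, while Thy1 differed by 0.23 in Cont and S100a4 by 0.61 in HS. Of the other markers in HSF1-KD Cont, 1 epithelial (Epcam, 0.47, adjusted p = 0.00104), 1 endothelial (Kdr, 0.47, adjusted p = 0.000132) and 1 blood cell marker (Cd68, 0.35, adjusted p = 0.0138) were higher and 1 epithelial marker was lower. In HSF1-KD HS 2 endothelial and 1 blood cell marker were higher, 1 blood cell marker was lower, and 0 of 5 epithelial markers were called. The mean over the epithelial markers was 7.84 to 7.87 in HSF1-KD HS against 7.81 to 7.84 in SCR HS, and 7.80 to 7.94 in HSF1-KD Cont against 7.76 to 7.82 in SCR Cont. Over the endothelial markers it was 7.31 to 7.37 in HSF1-KD HS against 7.11 to 7.22 in SCR HS, and 7.34 to 7.38 in HSF1-KD Cont against 7.13 to 7.21 in SCR Cont. Over the blood cell markers it was 7.76 to 7.88 in HSF1-KD HS against 7.77 to 7.89 in SCR HS, and 7.58 to 7.66 in HSF1-KD Cont against 7.39 to 7.46 in SCR Cont. The part of these markers in the members' differences was not tested.

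The differences were small and mostly of 1 sign. The median log2 difference of the members was -0.142 in Cont, against 0.033 for all symbols, and -0.105 in HS, against 0.031. In Cont 52 of 59 members (88.1%) were below 0, as were 40.5% of all symbols, and in HS 51 (86.4%), with 40.5% of all symbols. In Cont all 3 HSF1-KD arrays lay below all 3 SCR arrays for 40 members, a pattern that 16.9% of all symbols showed. In HS this held for 32 members, against 16.7% of all symbols. No member differed from SCR by more than 1.5-fold.

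Of the 27 members lower in either condition, 11 were lower in both, which is 50% of the calls in Cont and 68.8% of those in HS. Both subunits took part: 9 of 22 small-subunit and 13 of 37 large-subunit members were lower in Cont, and 7 and 9 in HS. The Cont count rested partly on single arrays. It was 12 without HSF1-KD Cont replicate 2, 13 without SCR Cont replicate 1 and 14 without SCR Cont replicate 3, while the HS count was 10 without SCR HS replicate 2 or HSF1-KD HS replicate 3. A fit on the compared arrays alone, with fewer arrays to estimate the spread, called 9 members lower in Cont and 9 in HS, and the methods' t-test 5 and 9 after Benjamini-Hochberg adjustment.

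Rps20, a protein of the small-subunit head, fell most clearly. Its log2 signal was 12.128, 11.998 and 12.070 in HSF1-KD Cont, against 12.59, 12.47 and 12.46 in SCR Cont. In heat-shocked cells it was 12.11, 12.14 and 12.06 in HSF1-KD HS, against 12.48, 12.55 and 12.45 in SCR HS. The 6 HSF1-KD arrays lay apart from all others and the groups did not overlap. The log2 difference was -0.44 in Cont (standard error 0.05, adjusted p = 1.54e-05), 0.738 of the SCR level, and -0.39 in HS (adjusted p = 3.07e-05). Rps20 passed the threshold in both conditions under every alternative tried. It has only 1 probe set with its symbol alone, so the mean of a symbol's probe sets could not change its difference.

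Rps4x, the X-linked small-subunit protein, and Rpl10a, a large-subunit protein near the exit site for transfer RNA, were also lower in both conditions. Rps4x was at 11.86, 11.73 and 11.82 in HSF1-KD Cont, against 12.08, 12.04 and 12.06 in SCR Cont, a difference of -0.26 (adjusted p = 0.00117). In HS it was at 11.86, 11.83 and 11.75 in HSF1-KD, against 12.09, 12.12 and 12.05 in SCR, a difference of -0.28 (adjusted p = 0.000568). None of these groups overlapped. Rpl10a was at 13.17, 13.11 and 13.10 in HSF1-KD Cont, against 13.39, 13.35 and 13.44 in SCR Cont (difference -0.27, adjusted p = 0.000357). Its difference in HS was -0.23 (adjusted p = 0.00103), again with no overlap. Both genes passed in both conditions under every alternative tried.

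Rpsa, the small-subunit protein also known as a laminin receptor, is read by 5 probe sets. Its brightest was at 11.85, 11.82 and 11.71 in HSF1-KD HS, against 12.06, 12.28 and 11.97 in SCR HS, a difference of -0.31 (standard error 0.07, adjusted p = 0.0057). In Cont it was at 11.74, 11.75 and 11.62 in HSF1-KD, against 11.94, 11.89 and 11.88 in SCR. The arrays did not overlap there either, but the difference of -0.20 on this probe set missed the threshold (adjusted p = 0.0691). Of the 5 probe sets, 4 were lower in Cont (-0.21 to -0.15 over all 5, median -0.20) and 4 in HS (-0.31 to -0.14, median -0.18). Under 3 alternatives Rpsa passed in Cont, with an adjusted p of 0.00633 for the mean of its probe sets, 0.0315 among the brighter probe sets and 0.0433 with the trended robust prior. Over all alternatives that p ran between 0.00633 and 0.221. Whether the 2 differences themselves differed is the interaction test given further on, which called no member.

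Other members with large falls in Cont were Rpl22 (log2 difference -0.34, adjusted p = 0.0135), Rps12 (-0.31, adjusted p = 0.00661) and Rpl7 (-0.28, adjusted p = 0.00893). Rpl22 and Rpl7 are large-subunit proteins, and Rps12 belongs to the small-subunit head. In HS the largest among the called members after Rps20 and Rpsa were Rpl36a (-0.30, adjusted p = 0.00494) and Rpl13 (-0.30, adjusted p = 0.000653), both of the large subunit. Among members with a known role outside or beside translation, Rpl5, which with 5S ribosomal RNA and Rpl11 binds MDM2, differed by -0.24 in HS (adjusted p = 0.00577) and by -0.10 in Cont (adjusted p = 0.235). Rplp0, the anchor of the ribosomal stalk, differed by -0.15 in HS (adjusted p = 0.0266) and by -0.05 in Cont (adjusted p = 0.485). Rps6 differed by -0.12 in Cont (adjusted p = 0.0834).

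**Figure D2:**
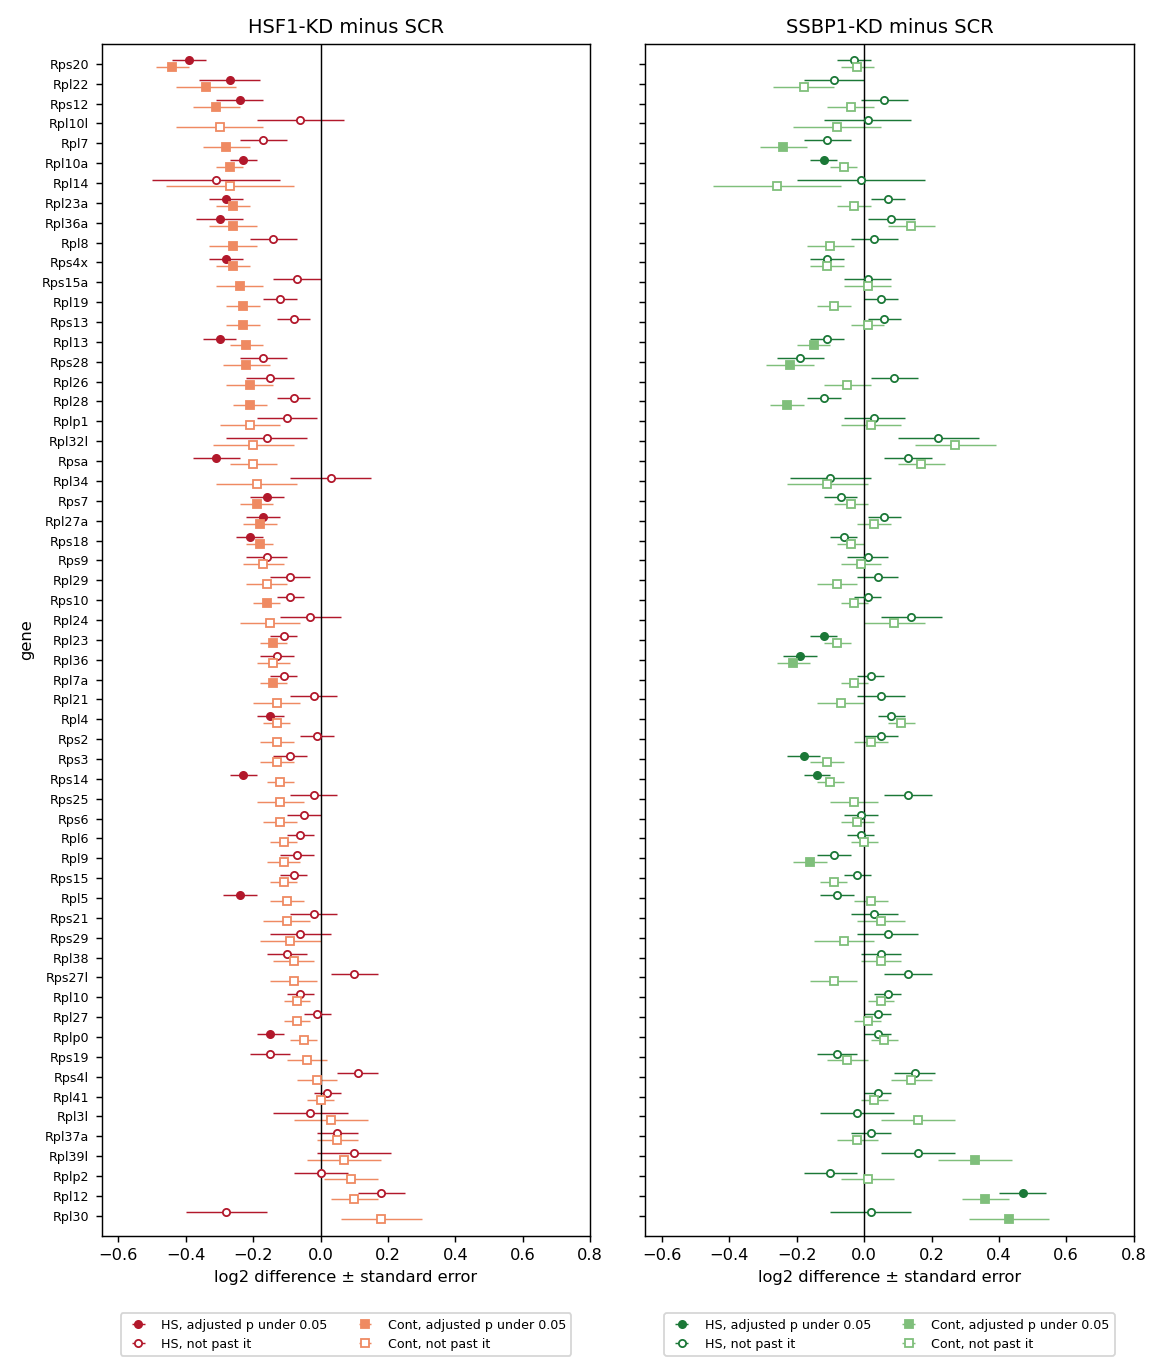
Log2 difference from SCR of the 59 genes (rows) in HSF1-KD (left) and SSBP1-KD (right), with circles for HS, squares for Cont, bars for the standard error and filled marks for an adjusted p under 0.05. In HSF1-KD 22 members in Cont and 16 in HS are filled, all left of 0, while in SSBP1-KD the marks lie on both sides of 0.

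Several genes are read by more than 1 probe set, and calls often differed among them. Of 39 such members, 38 had all probe sets below 0 in HSF1-KD Cont and 36 in HSF1-KD HS. In Cont all probe sets were called lower for 15 members, some for 8 and none for 16, and in HS all for 8, some for 7 and none for 24. For Rpl27a 3 of 9 were called in Cont, and Rps4l ran between -0.12 and 0.11 in HS. Of 215 probe sets that carry 1 member symbol, 109 were lower and 0 higher in HSF1-KD Cont, and 89 were lower and 0 higher in HSF1-KD HS. Among all symbols, each by its brightest probe set, 10.1% were lower in Cont and 10.7% in HS. In SSBP1-KD against SCR, 32 of the 215 were lower and 3 higher in Cont, and 19 lower and 1 higher in HS. There 16.5% of all symbols were lower in Cont and 14.4% in HS. The members with all probe sets lower in HSF1-KD Cont included Rps12 (14 probe sets), Rpl23a (13), Rpl13 (9), Rps4x (5) and Rpl10a (4). Rpl23a is a large-subunit protein at the exit of the peptide tunnel. Its 13 probe sets differed by -0.34 to -0.25, and those of Rps12 by -0.36 to -0.23. Probe sets of 1 gene share its transcript and often related sequence, and 19 of the 215 held the same values as another on every array, so they are not separate evidence. Ribosomal protein genes have many processed pseudogenes, and a probe set can also read these copies.

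The 2 knockdowns were also set against each other, a comparison added after the values had been seen. In HSF1-KD, 18 members (30.5%) were lower than in SSBP1-KD in Cont and 0 higher, against 12.9% and 16.6% of all symbols. In HS 18 (30.5%) were lower and 0 higher, against 11.6% and 14.1%. Of the brightest 10% of symbols without the members, 32.6% were lower in Cont and 25.4% in HS. In Cont the members' share was no higher than that of other bright genes.

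The median log2 difference of HSF1-KD from SSBP1-KD was -0.133 in Cont, against -0.018 for all symbols, and -0.121 in HS, against 0.003. The largest were those of Rpl32l, Rps20, Rpl36a and Rpsa. Rps20 was at 12.45, 12.45 and 12.48 in SSBP1-KD HS and at 12.48, 12.49 and 12.48 in SSBP1-KD Cont, above every HSF1-KD array. HSF1-KD differed from SSBP1-KD by -0.35 in HS (adjusted p = 5.65e-05) and by -0.42 in Cont (adjusted p = 9.96e-06). Rpsa was at 12.31, 12.21 and 12.18 in SSBP1-KD HS and at 12.10, 12.03 and 12.11 in SSBP1-KD Cont. The log2 difference of HSF1-KD from SSBP1-KD was -0.44 in HS (adjusted p = 0.000352) and -0.37 in Cont (adjusted p = 0.00114). Rpl36a differed by -0.38 in HS (adjusted p = 0.000771) and by -0.40 in Cont (adjusted p = 0.000443). Rpl32l, named as a paralog of the large-subunit gene Rpl32, differed by -0.37 in HS (adjusted p = 0.0405) and by -0.48 in Cont (adjusted p = 0.00926). None of these groups overlapped. Leaving out HSF1-KD Cont replicate 2 left 8 members lower in Cont, the fit on the compared arrays alone 5 and the methods' t-test 7. In HS leaving out any 1 array lowered the count of 18, to between 9 and 14. It was 9 without HSF1-KD HS replicate 3 and 10 without SSBP1-KD HS replicate 1.

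**Figure D3:**
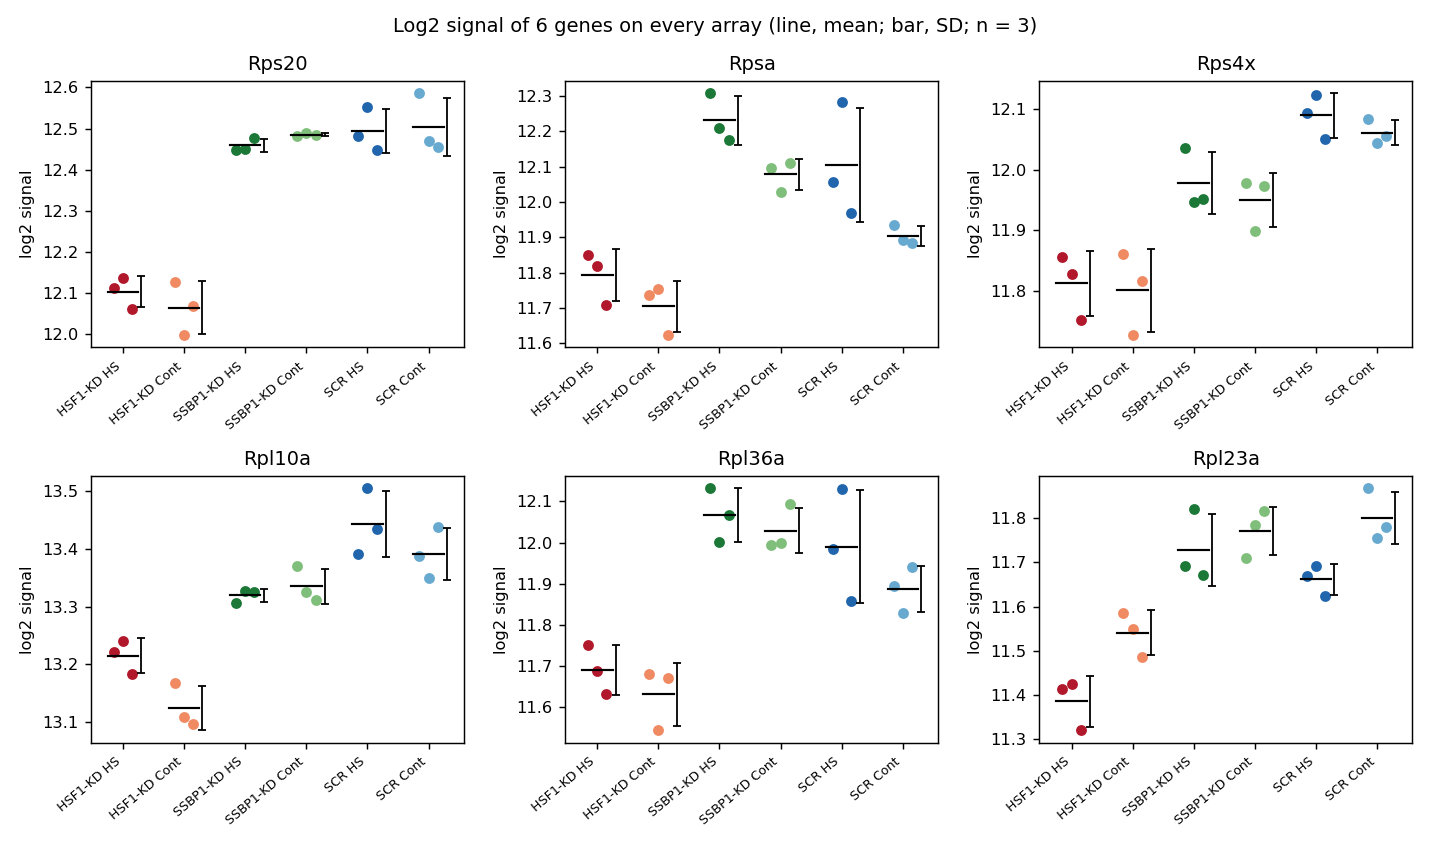
Log2 signal of Rps20, Rpsa, Rps4x, Rpl10a, Rpl36a and Rpl23a on each of the 18 arrays, with a line for the group mean and a bar for the SD (n = 3). The HSF1-KD arrays, at the left of each panel, lie below those of SSBP1-KD and SCR at the same temperature, and of these 6 genes Rps20 has the widest gap to the SCR arrays at both temperatures.

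In SSBP1-KD the signs were mixed, with 36 of 59 members (61.0%) below 0 against SCR in Cont and 24 (40.7%) in HS, while 38.9% and 43.2% of all symbols were. Against SCR in Cont, 3 members (5.08%) were higher and 6 (10.2%) lower, while 14.6% of all symbols were higher and 16.5% lower. In HS 1 member was higher and 5 were lower, against 14.3% and 14.4% of all symbols. The median log2 difference was -0.031 in Cont and 0.022 in HS, against 0.051 and 0.025 for all symbols. Rps20 differed between SSBP1-KD and SCR by -0.02 in Cont (95% confidence interval -0.12 to 0.08) and -0.03 in HS (-0.13 to 0.06).

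The 6 members lower in SSBP1-KD Cont were all of the large subunit but for Rps28. Rpl7 differed by -0.24 (adjusted p = 0.0142), Rpl28 by -0.23 (adjusted p = 0.00271), Rps28 by -0.22 (adjusted p = 0.0257) and Rpl36 by -0.21 (adjusted p = 0.00826). All probe sets were lower for Rpl7 (4), Rpl28 (5) and Rpl36 (9), but only 2 of 7 for Rps28 (median -0.14). Rpl13 and Rpl9 were lower as well, with 8 of 9 and 1 of 8 probe sets lower. Rpl9 lies outside the rule for named genes. Rpl36 was at 12.09, 11.89 and 11.99 in SSBP1-KD Cont, against 12.21, 12.19 and 12.19 in SCR Cont, with no overlap. It was lower in SSBP1-KD HS too, at 12.13, 12.08 and 12.07, against 12.28 on each SCR HS array (difference -0.19, adjusted p = 0.0154). The other falls in HS included Rps3 (-0.18, adjusted p = 0.0112), a small-subunit protein at the entry of the messenger RNA channel, and Rps14 (-0.14, adjusted p = 0.0235). Without the array that lay off, SSBP1-KD Cont replicate 1, there were 2 members higher and 6 lower. These were not the same 6, since Rps28 (-0.15, adjusted p = 0.114) and Rpl9 (-0.14, adjusted p = 0.0702) no longer passed. Without SCR Cont replicate 1 there were 2 lower, and leaving out 1 array at a time left 1 to 4 lower in HS.

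Rpl12, which forms the base of the ribosomal stalk, and Rpl30, another large-subunit protein, went the other way. Each has only 1 probe set with its symbol alone, which gave these values. Rpl12 was at 10.23, 10.24 and 10.28 in SSBP1-KD Cont, against 9.94, 10.03 and 9.71 in SCR Cont, a difference of 0.36 (adjusted p = 0.00121). In HS it was at 9.53, 9.39 and 9.47 in SSBP1-KD, against 8.956, 8.998 and 9.027 in SCR, a difference of 0.47 (adjusted p = 0.000139). Neither pair of groups overlapped. Rpl30 was at 9.85, 10.24 and 10.30 in SSBP1-KD Cont, against 9.70, 9.73 and 9.68 in SCR Cont, a difference of 0.43 (adjusted p = 0.0148). The lowest of the SSBP1-KD arrays is the one that lay off, and without it the difference was 0.57 (adjusted p = 0.00117). In HS Rpl30 differed by 0.02 (adjusted p = 0.935). A probe set that lists Rpl12 beside the small nucleolar RNA Snora65 rose likewise, by 0.28 in Cont and 0.37 in HS. The 7 brighter probe sets that list Rpl12 beside predicted genes differed by -0.01 to 0.03 in Cont and 0.01 to 0.04 in HS. The 10 that list Rpl30 beside predicted genes differed by -0.13 to -0.08 in Cont. Of the probe sets beside predicted genes 0 were called in these comparisons. The third rise in Cont was that of Rpl39l, at 0.33 (adjusted p = 0.0386), the dimmest member, whose arrays overlapped and whose call was lost without SSBP1-KD Cont replicate 1 (0.21, adjusted p = 0.174).

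The comparison of HS with Cont within each kind of cell asks what 1 h at 42 °C did. Few members passed the test: 0 were higher and 1 was lower in SCR, 3 higher and 3 lower in HSF1-KD, and 0 higher and 2 lower in SSBP1-KD. Among all symbols 7.63% were higher and 8.34% lower in SCR, 10.6% and 10.8% in HSF1-KD, and 4.07% and 2.82% in SSBP1-KD. The median log2 difference of the members was 0.026 in SCR, 0.061 in HSF1-KD and 0.046 in SSBP1-KD, against -0.006, -0.009 and -0.013 for all symbols. For the brightest 10% of symbols without the members it was -0.012, 0.038 and 0.023. Below 0 were 33.9% of the members in SCR, 16.9% in HSF1-KD and 27.1% in SSBP1-KD. The shares of all symbols below 0 were 52.3%, 52.7% and 54.5%. In SCR the difference lay within 0.2 of 0 for 56 of the 59 members. Of 232 probe sets that list 1 member beside other symbols, 36 were higher and 2 lower in HSF1-KD. In SCR and in SSBP1-KD 2 of them were higher and 2 lower. Against SCR, 128 of the 232 were lower and 0 higher in HSF1-KD Cont, and 49 lower and 0 higher in HSF1-KD HS. In SSBP1-KD 25 were lower and 1 higher in Cont, and 17 lower and 1 higher in HS. Among them, 4 of the 7 that list Rpl12 beside predicted genes were lower in HSF1-KD Cont. The probe set with the symbol Rpl12 alone averaged 9.99 there, against 9.89 in SCR Cont.

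Rpl12 was the exception in all 3 kinds of cell, and its group means had the widest spread of all members (SD 0.495). It was at 9.23, 9.18 and 9.11 in HSF1-KD HS, against 10.05, 9.95 and 9.98 in HSF1-KD Cont. With the SSBP1-KD and SCR arrays given above, every heat-shocked array lay below every array of its own kind of cell at 37 °C. The log2 difference was -0.82 in HSF1-KD (adjusted p = 2.39e-06), -0.79 in SSBP1-KD (adjusted p = 5.95e-06) and -0.90 in SCR (standard error 0.07, adjusted p = 6.48e-07), which is 0.537 of the unshocked level in SCR. All 3 passed under every alternative tried.

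Rpl30 was at 9.25, 9.23 and 8.93 in HSF1-KD HS, against 9.87, 9.90 and 9.88 in HSF1-KD Cont, a difference of -0.74 (adjusted p = 4.78e-04). In SSBP1-KD HS it was at 9.62, 9.28 and 9.42, below the Cont arrays of that group, a difference of -0.69 (adjusted p = 0.00191). In SCR HS it was at 9.49, 9.27 and 9.48, a difference of -0.29 that missed the threshold (adjusted p = 0.13). The heat response of Rpl30 was not shown to differ between the cells, with a difference from SCR of -0.46 for HSF1-KD (adjusted p = 0.472) and -0.41 for SSBP1-KD (adjusted p = 0.433).

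These falls belong to particular probe sets. Rpl12 and Rpl30 each have only 1 probe set with their symbol alone, at mean signals of 9.63 and 9.62. A probe set that lists Rpl12 beside the small nucleolar RNA Snora65, at a mean of 9.62, fell likewise, by -0.87 in HSF1-KD, -0.75 in SSBP1-KD and -0.84 in SCR (adjusted p = 1.89e-05, 0.000129 and 1.92e-05). Snora65 is encoded in an intron of Rpl12. The 7 probe sets that list Rpl12 beside predicted genes had mean signals of 13.44 to 13.73, and 0 of them were called with heat shock in any kind of cell. The 10 probe sets that list Rpl30 beside predicted genes, at 12.27 to 12.65, gave 0 calls as well. Whether the dimmer probe sets read spliced transcripts, unspliced ones or another RNA was not tested.

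**Figure D4:**
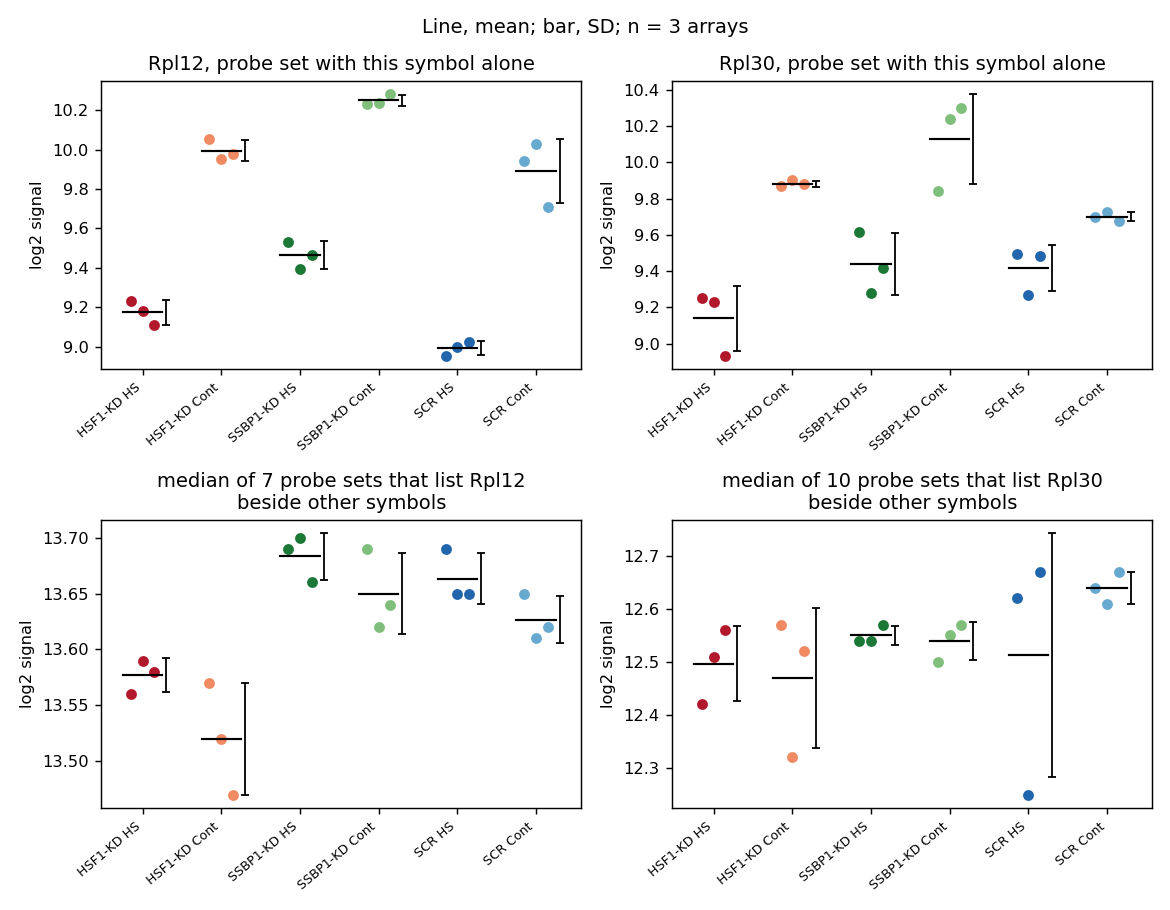
Log2 signal on each of the 18 arrays of the probe sets with the symbol Rpl12 or Rpl30 alone (top) and the median of 7 and 10 probe sets that list these genes beside other symbols (bottom), with a line for the group mean and a bar for the SD (n = 3). In the top left panel every heat-shocked array lies below every Cont array, while in each bottom panel the values of all arrays lie within 0.5 of each other.

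The 3 members higher after heat shock in HSF1-KD were Rps2 (log2 difference 0.15, adjusted p = 0.0284), Rpl27a (0.15, adjusted p = 0.048) and Rps10 (0.14, adjusted p = 0.026). Rps2 was at 13.44, 13.43 and 13.44 in HSF1-KD HS, against 13.37, 13.22 and 13.27 in HSF1-KD Cont, and the groups did not overlap. None of the 3 passed in the fit on the compared arrays alone, where 0 members were higher, or when HSF1-KD Cont replicate 2, HSF1-KD HS replicate 1 or HSF1-KD HS replicate 2 was left out. Rpl23a was lower by -0.15 (adjusted p = 0.0492), at the edge of the threshold. Of its 13 probe sets 2 were lower, with a median of -0.05 over all 13. For Rpl27a 1 of 9 probe sets was higher, with a median of 0.09, against 2 of 3 for Rps2 and 3 of 3 for Rps10.

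The difference in heat response between the kinds of cell was tested as an interaction. By limma 0 members differed in either direction for HSF1-KD against SCR, and 0 for SSBP1-KD against SCR. Among all symbols 0.01% were higher and 0.336% lower for HSF1-KD, and 0.181% and 0.311% for SSBP1-KD. At an unadjusted p under 0.05, limma gave 0 members higher and 1 lower for HSF1-KD, and 1 higher and 1 lower for SSBP1-KD. The methods' test on the same contrast gave 0 members after adjustment in both cases. For Rpl12 the heat response differed from that of SCR by 0.08 in HSF1-KD (adjusted p = 0.89) and by 0.11 in SSBP1-KD (adjusted p = 0.783).

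Other members varied little. Rpl41, the smallest ribosomal protein, had the narrowest spread of group means (SD 0.0193), with means after heat shock of 13.33 in HSF1-KD, 13.35 in SSBP1-KD and 13.31 in SCR, and without it of 13.30 in HSF1-KD, 13.33 in SSBP1-KD and 13.30 in SCR. Within groups the SD of Rpl41 ran from 0.0245 to 0.0427. The paralog Rps27l, known as a p53 target, had group means between 11.66 and 11.81 and was called in no comparison. Rpl10, which joins the large subunit late in its assembly, was lower in HSF1-KD than in SSBP1-KD by -0.12 in HS (adjusted p = 0.0364) and by -0.12 in Cont (adjusted p = 0.0328). Rps19, the gene most often mutated in human Diamond-Blackfan anaemia, and the stalk protein Rplp2, with 1 probe set each, were called in no comparison, with Rps19 means between 10.99 and 11.14. The brighter of 2 probe sets of Rplp1, another stalk protein, was called in no comparison either. The other was lower in HSF1-KD Cont than in SCR Cont (-0.34), and lower in HSF1-KD than in SSBP1-KD in Cont (-0.35) and HS (-0.27).

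Genes that build or serve the ribosome were counted from lists of known function. The counts are to be read against all symbols, of which 10.9% were higher and 10.1% lower in HSF1-KD Cont than in SCR Cont, and 13.1% and 10.7% in HSF1-KD HS than in SCR HS. In SSBP1-KD these shares were 14.6% and 16.5% in Cont, and 14.3% and 14.4% in HS. Among 65 measured ribosome assembly factors, 51 (78.5%) were higher and 0 lower in SSBP1-KD Cont against SCR, and 57 (87.7%) higher and 0 lower in SSBP1-KD HS. In HSF1-KD 9 (13.8%) were higher, close to the share of all symbols, and 1 lower in Cont, and 23 (35.4%) higher and 0 lower in HS. Their median log2 differences were 0.417 and 0.43 in SSBP1-KD, and 0.106 and 0.169 in HSF1-KD, each in Cont and HS order. Tsr1, a factor of small-subunit maturation, was at 10.87 in SSBP1-KD Cont against 10.04 in SCR Cont (difference 0.83, adjusted p = 4.18e-06). Nmd3, the export adaptor of the large subunit, was at 11.17 in SSBP1-KD Cont against 10.70 in SCR Cont (difference 0.46, adjusted p = 7.85e-06). The medians of the ribosomal proteins in SSBP1-KD were -0.031 in Cont and 0.022 in HS.

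RNA polymerase I and its factors, which make ribosomal RNA, had 9 of 12 measured genes (75%) higher and 1 lower in SSBP1-KD Cont, against 14.6% and 16.5% of all symbols, and 8 (66.7%) higher and 1 lower in HS. In HSF1-KD 3 (25%) were higher and 1 lower in Cont, and 5 (41.7%) higher and 1 lower in HS. Polr1a, the largest subunit of the polymerase, was at 10.82 in SSBP1-KD HS against 10.44 in SCR HS (difference 0.38, adjusted p = 5.74e-05). Of 77 mitochondrial ribosomal proteins, 18 (23.4%) were higher and 3 lower in SSBP1-KD Cont, 32 (41.6%) higher and 3 lower in SSBP1-KD HS, and 15 (19.5%) higher and 4 lower in HSF1-KD HS. In HSF1-KD Cont 6 were higher and 6 lower, 7.79% in each direction, below the 10.9% and 10.1% of all symbols. Mrps6 was at 10.38 in HSF1-KD Cont against 9.85 in SCR Cont (difference 0.53, adjusted p = 1.13e-05), and Mrpl23 at 9.74 against 10.27 (difference -0.53, adjusted p = 5.75e-05).

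Among 24 measured initiation factors and their binding proteins, 2 (8.33%) were higher and 5 (20.8%) lower in HSF1-KD Cont, against 10.9% and 10.1% of all symbols, and as many in HS, against 13.1% and 10.7%. In SSBP1-KD 9 (37.5%) were higher and 0 lower in Cont, and 10 (41.7%) higher and 2 lower in HS. Eif4ebp2, a repressor of the cap-binding factor under mTOR, was at 10.63 in HSF1-KD Cont against 11.61 in SCR Cont (difference -0.98, adjusted p = 6.83e-07). It was at 10.68 in HSF1-KD HS against 11.58 in SCR HS (difference -0.90, adjusted p = 7.39e-07). Its relative Eif4ebp1 was lower too, by -0.34 in Cont (adjusted p = 0.00046) and by -0.44 in HS (adjusted p = 3.96e-05).

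Elongation factors and other genes with terminal oligopyrimidine transcripts, 18 measured, had 2 (11.1%) higher and 6 (33.3%) lower in HSF1-KD Cont, against 10.9% and 10.1% of all symbols, and 2 (11.1%) higher and 5 (27.8%) lower in HS, against 13.1% and 10.7%. In SSBP1-KD 6 (33.3%) were higher and 0 lower in Cont, and 7 (38.9%) higher and 3 (16.7%) lower in HS. Eif3f, a subunit of an initiation factor, was at 11.67 in HSF1-KD Cont against 11.89 in SCR Cont (difference -0.22, adjusted p = 0.00115), and Tpt1 at 13.31 against 13.52 (difference -0.22, adjusted p = 0.00352). Eif2s3x went the other way, at 12.92 in HSF1-KD Cont against 12.68 in SCR Cont (difference 0.25, adjusted p = 0.0044). Of 8 further ribosomal and ubiquitin-fusion genes outside the name rule, 3 were measured and 0 were called against SCR, and Rps3a1 was lower in HSF1-KD than in SSBP1-KD by -0.41 in Cont (adjusted p = 0.00631).

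Of 14 measured regulators of these transcripts, 1 (7.14%) was higher and 2 (14.3%) lower in HSF1-KD Cont, near the 10.9% and 10.1% of all symbols, and 3 (21.4%) higher and 3 (21.4%) lower in HS, against 13.1% and 10.7%. In SSBP1-KD 4 (28.6%) were higher and 2 (14.3%) lower in Cont, and 5 (35.7%) higher and 2 (14.3%) lower in HS. Larp1, the protein that binds terminal oligopyrimidine transcripts, was at 11.30 in HSF1-KD Cont against 11.57 in SCR Cont (difference -0.27, adjusted p = 0.000115) and at 11.46 in HSF1-KD HS against 11.66 in SCR HS (difference -0.20, adjusted p = 0.00111). In SSBP1-KD HS it was at 11.88, higher than in SCR HS by 0.22 (adjusted p = 0.000363). Myc, a driver of ribosome production, was at 11.56 in SSBP1-KD Cont against 10.96 in SCR Cont (difference 0.60, adjusted p = 3.31e-05), and at 11.52 in SSBP1-KD HS against 11.47 in SCR HS (0.05, adjusted p = 0.724). It was at 10.84 in HSF1-KD HS against 11.47 in SCR HS (difference -0.63, adjusted p = 2.81e-05), and at 10.85 in HSF1-KD Cont against 10.96 in SCR Cont (-0.11, adjusted p = 0.36). With heat shock Myc differed by 0.51 in SCR (adjusted p = 0.000249), -0.01 in HSF1-KD (adjusted p = 0.951) and -0.05 in SSBP1-KD (adjusted p = 0.761). Its heat response differed from that of SCR by -0.55 in SSBP1-KD (adjusted p = 0.0322) and by -0.52 in HSF1-KD (adjusted p = 0.0577). Mdm2, which ribosomal proteins can bind, was higher in both knockdowns in Cont, by 0.35 in HSF1-KD (adjusted p = 0.000269) and by 0.56 in SSBP1-KD (adjusted p = 2.51e-06).

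The start regions of the members were read from RefSeq promoters (GRCm38.p6), which held 47 of the 59 genes and 27025 symbols in all. The 250 bases before each start were searched on both strands. CGGAAG, the core of the motif that ETS-family factors bind, was found in 26 of the 47 members (55.3%), against 15.3% of all symbols. The longer CCGGAAG, which contains the shorter motif and so overlaps it, was found in 14 (29.8%), against 7.83%. GAANNTTC, a pair of inverted heat shock units where N is any base, was found in 3 (6.38%), against 7.73% of all symbols. A run of 3 such units in alternating orientation, each separated by a pair of any bases, is the kind of site to which HSF1 binds. It was found in 1 member, Rps18 (2.13%), against 0.514%. A pyrimidine run that opens with C, starting within 5 bases of the annotated start, was found in 18 (38.3%), against 21.2%. Whether the annotated starts are those used in these cells was not tested, so this count does not say which transcripts carry the motif. A match describes these letters and says nothing of binding.

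The upstream regions of Rps18, Rpsa, Rps12 and Rps4x are shown because these members were lower in HSF1-KD and differ in their motifs. Rps18 lies outside the rule for named genes and was chosen after its values were seen: it was lower by -0.18 in Cont (adjusted p = 0.00602) and by -0.21 in HS (adjusted p = 0.00144). Each sequence gives the 250 bases before the start, 5′ to 3′ on the strand of the gene, and ends at the last base before the start. Capitals mark CGGAAG on either strand and, in Rps18, the run of 3 heat shock units 215 bases before the start. Rps18 is at chr17:33955666-33955915 on the minus strand, Rpsa at chr9:120127516-120127765 on the plus strand, Rps12 at chr10:23787210-23787459 on the minus strand and Rps4x at chrX:102189392-102189641 on the minus strand.
Rps18: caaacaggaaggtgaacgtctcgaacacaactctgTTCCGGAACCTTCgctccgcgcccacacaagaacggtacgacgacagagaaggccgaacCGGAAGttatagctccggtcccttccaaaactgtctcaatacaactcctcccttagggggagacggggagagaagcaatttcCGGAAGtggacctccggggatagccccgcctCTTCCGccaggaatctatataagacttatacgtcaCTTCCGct
Rpsa: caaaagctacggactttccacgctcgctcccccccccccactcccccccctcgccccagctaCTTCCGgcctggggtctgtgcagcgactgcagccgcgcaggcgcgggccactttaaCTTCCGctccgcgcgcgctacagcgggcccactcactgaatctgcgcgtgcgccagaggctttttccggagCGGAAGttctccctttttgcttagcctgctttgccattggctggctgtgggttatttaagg
Rps12: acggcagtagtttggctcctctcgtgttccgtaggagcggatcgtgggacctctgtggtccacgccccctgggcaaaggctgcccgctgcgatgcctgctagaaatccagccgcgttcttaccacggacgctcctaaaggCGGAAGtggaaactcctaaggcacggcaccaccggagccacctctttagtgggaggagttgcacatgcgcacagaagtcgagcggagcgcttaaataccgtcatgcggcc
Rps4x: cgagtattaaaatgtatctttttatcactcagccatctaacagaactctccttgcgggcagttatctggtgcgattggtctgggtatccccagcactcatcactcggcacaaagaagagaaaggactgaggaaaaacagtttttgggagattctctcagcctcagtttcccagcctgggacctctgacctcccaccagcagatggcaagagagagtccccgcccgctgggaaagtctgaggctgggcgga
The regions hold 4 copies of CGGAAG in Rps18, 3 in Rpsa, 1 in Rps12 and 0 in Rps4x. In HSF1-KD HS all 4 genes were lower than in SCR HS, and in HSF1-KD Cont the brightest probe set of Rpsa alone missed the threshold, while 4 of 5 Rpsa probe sets passed.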

How the data were processed

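Affymetrix Mouse Gene ST arrays measured RNA of 18 samples, 3 in each of 6 groups. The log2 signals were deposited as 1 table with a row per probe set, and the submitters' notes name RMA and Partek 6.5. The values were background-corrected and normalized before deposit and used as they stood. Raw scans were not analysed here. All columns matched a sample. Arrays carry no read depth, and precision is set by how many there are.

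Of 35557 probe sets, 21789 have 1 symbol, 1621 several and 12147 none, by the platform annotation, and 21701 of those with 1 symbol matched a RefSeq gene table of GRCm38.p6. The deposited log2 values of all probe sets entered 1 linear model (limma 3.58.1, R 4.3.3, lmFit and eBayes, 1 mean per group, 12 residual and 2.36 prior degrees of freedom). Adjustment of p-values (Benjamini-Hochberg) ran over the whole table, with calls at 0.05. The fit was tested on simulated data. The methods' t-test gave 35 members lower in HSF1-KD Cont and 27 in HSF1-KD HS at its unadjusted threshold, and 5 and 9 after adjustment. Plots came from matplotlib 3.10.9 (Python 3.11.15).

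Members, companion lists and named genes were chosen with earlier results of these data known. Named members were the up to 4 largest rises and falls called in each comparison, paralogs ending in l, members with a known further role (Rpsa, Rplp0, Rplp1, Rplp2, Rps6, Rpl5, Rpl10, Rps19), and those with the largest and the smallest SD between group means. From each list up to 3 genes with the smallest adjusted p in a comparison could be named.

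Alternatives were array medians or the brightest 10% of probe sets set to 1 value, quantile normalization again, only the brighter probe sets, only the compared arrays, a replicate block, a trended robust prior, the mean of a symbol's probe sets, the methods' t-test, and each array left out in turn. They covered the members alone, and results of the companion lists had no such check. The comparison between the knockdowns and the fits of HSF1-KD against SCR without SSBP1-KD Cont replicate 1 were added after seeing the data.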

Additional observations from a re-analysis of the deposited data

Results flagged for a closer look

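The heat response of Myc, one of the regulators of ribosomal protein transcripts, differed between kinds of cell: the log2 change in SSBP1-KD minus that in SCR was -0.55 (adjusted p = 0.0322 by limma's interaction term). With heat shock Myc differed by -0.05 in SSBP1-KD and by 0.51 in SCR. No alternative was run for Myc, and SSBP1-KD Cont holds the array that lay off from its group. No cytosolic ribosomal protein gene had a heat response that differed between kinds of cell at the adjusted threshold by limma, where at an unadjusted p under 0.05 there were 0 higher and 1 lower for HSF1-KD against SCR and 1 higher and 1 lower for SSBP1-KD against SCR, and the methods' test gave 0 after adjustment in both.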

How the results depend on the processing

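Arrays and their number limit these results: 3 per group, small differences, and probe sets that can read related copies. Of 98 calls on single members, 27 passed under every alternative, among them Rps20 against SCR and against SSBP1-KD in Cont and HS, Rpl12 with heat shock in all 3 kinds of cell, and Rps4x and Rpl10a in HSF1-KD against SCR in both conditions. The medians of HSF1-KD against SCR stayed below 0, between -0.172 and -0.122 in Cont and between -0.126 and -0.092 in HS, when 1 array at a time was left out. Of 297 values of counts and medians under other settings 264 kept within the limits used, which are not detailed here, and 33 did not. Fits with 1 array left out are not among the 297 and are given below. The 297 include interaction counts that were 0 in the main fit, so this share is no measure of robustness. The causes were not tested, other than that the fit on the compared arrays alone and the methods' t-test have fewer arrays to estimate the spread.

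In that fit on the compared arrays alone, HSF1-KD against SCR gave 9 lower in Cont and 9 in HS, HSF1-KD against SSBP1-KD in Cont 5 lower, SSBP1-KD against SCR 0 higher and 2 lower in Cont and 3 lower in HS, and heat shock 2 lower in SCR, 0 higher in HSF1-KD and 1 lower in SSBP1-KD. By the methods' t-test, HSF1-KD against SCR gave 1 higher and 5 lower in Cont and 9 lower in HS, HSF1-KD against SSBP1-KD 7 lower in Cont and 1 higher in HS, SSBP1-KD against SCR 2 lower in Cont and 3 lower in HS, and heat shock 1 higher in SCR, 0 higher in HSF1-KD and 1 lower in SSBP1-KD. With quantile normalization again, heat shock in SCR gave 2 lower, HSF1-KD against SCR in HS 1 higher, and the median of HSF1-KD against SSBP1-KD in Cont was -0.106. Among the brighter probe sets alone, heat shock gave 2 higher and 2 lower in SCR and 1 higher in SSBP1-KD, and SSBP1-KD against SCR in HS gave 8 lower and HSF1-KD against SCR in HS 1 higher. The trended robust prior gave 2 higher with heat shock in SCR and 2 higher in SSBP1-KD, array medians set to 1 value 1 higher with heat shock in SSBP1-KD and 2 lower in SSBP1-KD against SCR in HS, the brightest 10% set to 1 value 0 higher with heat shock in HSF1-KD, and the mean of a symbol's probe sets 1 higher with heat shock in SCR.

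With 1 array left out at a time, the lower calls were 12 to 26 for HSF1-KD against SCR in Cont, 10 to 17 in HS, 8 to 22 against SSBP1-KD in Cont (median -0.151 to -0.105) and 9 to 14 in HS. They were 2 to 6 for SSBP1-KD against SCR in Cont (2 to 3 higher) and 1 to 4 in HS (1 to 3 higher). With heat shock they were 1 to 2 in SCR (0 to 2 higher), 2 to 3 in HSF1-KD (0 to 4 higher) and 2 in SSBP1-KD.

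Calls were also gained. Of 154 results that had missed the threshold, among members named for a known role, 19 passed it under at least 1 alternative and 62 changed sign, 0 of these 62 past the threshold. Rpsa in HSF1-KD against SCR in Cont passed under 3 alternatives (lowest adjusted p 0.00633), as did Rps6 (array medians set to 1 value, the brighter probe sets and the trended robust prior, lowest adjusted p 0.0294), and heat shock in SCR passed for Rpl30 in the fit on the compared arrays alone (adjusted p = 0.0448). Some values that had missed the threshold changed sign. Rplp0 in HSF1-KD against SCR in Cont was 0.06 with quantile normalization again. Rps20 in SSBP1-KD against SCR in Cont was 0.01 with the brightest 10% set to 1 value, 0.01 with quantile normalization again and between -0.04 and 0.02 with 1 array left out, the highest without SCR Cont replicate 1. Rpl30 in SSBP1-KD against SCR in HS was -0.05 without SCR HS replicate 2 and -0.07 without SSBP1-KD HS replicate 1.

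Equal replicate numbers were not treated as a pairing, since residuals of same-numbered arrays correlated above 0.1 in only 6 of 45 pairs (range -0.276 to 0.171), and the nearest array bore the same number for 6 of 18. With the replicate block, HSF1-KD against SCR gave 22 members lower in Cont and 16 in HS.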
